A study of Mus musculus with 4 samples.

Results

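The regions described here are all stretches of chromosome 2 at which accessible chromatin was called in mpkCCD clone 11 cells, compared on either side of the position 150 Mb (mm10). Peaks of the 4 libraries that shared at least 1 bp were merged into regions, which gave 560228 regions in the whole series and 41624 on chromosome 2. Of these, 26058 started before 150 Mb, called the proximal side because the mouse centromere lies at the start of the numbering, and 15566 started after it, called the distal side. The split point was proposed from the density of these same peaks, so density, width, number of libraries and place at genes on its sides are given as descriptions without a test. At the boundary itself the last proximal region, chr2:149998249-149998957 inside Syndig1, was 709 bp wide and present in all 4 libraries, and the first distal region, chr2:150007829-150007932, was 104 bp wide and present in vehicle replicate 1 alone.

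The cells are a clonal mouse line from cortical collecting duct, the kidney segment in which vasopressin regulates water transport, so all values come from 1 clone. All 4 libraries had the same background: passages 8 to 10, growth in a medium with insulin, dexamethasone, triiodothyronine, epidermal growth factor, selenite, transferrin and dialyzed serum, confluence on permeable supports, and then a medium free of serum and hormones. The groups were 2 libraries after 30 min with 0.1 nM dDAVP, an agonist of the V2 vasopressin receptor, and 2 after the same time with vehicle. Nothing in the labels shows that 2 libraries of a group were cultured apart, so p-values measure only the spread between these libraries, which may be technical. The lists held 393956 (vehicle replicate 1), 291454 (dDAVP replicate 1), 206972 (vehicle replicate 2) and 205771 peaks (dDAVP replicate 2), so both replicate 1 lists were longer than both replicate 2 lists. The lists give positions only, and read depth and DNA copy number cannot be read from them. Of the defining genes of collecting duct cells outside chromosome 2, Aqp2 (the vasopressin-regulated water channel), Scnn1a and Scnn1g (subunits of the sodium channel ENaC) and Hsd11b2 had a peak within 1 kb of a gene end in all 4 libraries. Aqp3, Avpr2 (the V2 receptor) and Scnn1b had one in 2 of 4.

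ATAC-seq marks DNA that a transposase can reach, mostly promoters and enhancers freed of nucleosomes by bound factors. Accessible sites are not spread evenly along chromosomes: gene-rich, early-replicating domains usually hold many, and gene-poor domains few. Promoters rich in the dinucleotide CpG (CpG islands) are open in most cell types, whereas CpG-poor promoters are open mainly where their gene is in use.

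Promoters of 6 genes are shown because they represent both promoter classes in the parts of the chromosome that the results contrast; they were chosen after their values were seen. Each line is the 250 bases before an annotated start, from RefSeq on GRCm38.p6 (the assembly called mm10 by genome browsers), read 5′ to 3′ on the gene's strand, with CpG in capitals. Gata3, a transcription factor of the kidney and collecting duct lineage, lies on the proximal side (chr2:9878601-9878850, minus strand) and its window had a peak in all 4 libraries. Slc12a1, the Na-K-2Cl cotransporter of the thick ascending limb, also lies on the proximal side (chr2:125152350-125152599, plus strand) and its window had none.
Gata3: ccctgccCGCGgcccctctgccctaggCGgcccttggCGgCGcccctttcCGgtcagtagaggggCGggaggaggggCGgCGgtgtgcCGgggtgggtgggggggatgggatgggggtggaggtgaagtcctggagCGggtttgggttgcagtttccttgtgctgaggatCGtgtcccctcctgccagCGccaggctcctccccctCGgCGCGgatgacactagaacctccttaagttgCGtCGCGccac
Slc12a1: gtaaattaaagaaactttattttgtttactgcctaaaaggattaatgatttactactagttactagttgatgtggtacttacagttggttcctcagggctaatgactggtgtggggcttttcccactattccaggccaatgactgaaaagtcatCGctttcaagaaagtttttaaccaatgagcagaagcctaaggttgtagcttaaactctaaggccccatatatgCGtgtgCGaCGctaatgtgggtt
Cebpb, a bZIP transcription factor (chr2:167688665-167688914, plus strand), and Edn3, the peptide endothelin 3 (chr2:174760369-174760618, plus strand), lie in the dense distal stretch, and both windows had a peak in all 4 libraries although Edn3 holds 7 CpG here and Cebpb 41.
Cebpb: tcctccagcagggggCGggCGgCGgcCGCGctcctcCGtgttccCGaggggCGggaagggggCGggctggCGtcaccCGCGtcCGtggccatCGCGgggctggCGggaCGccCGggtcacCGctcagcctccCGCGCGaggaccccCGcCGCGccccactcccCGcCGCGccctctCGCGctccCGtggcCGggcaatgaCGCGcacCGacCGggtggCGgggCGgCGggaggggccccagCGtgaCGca
Edn3: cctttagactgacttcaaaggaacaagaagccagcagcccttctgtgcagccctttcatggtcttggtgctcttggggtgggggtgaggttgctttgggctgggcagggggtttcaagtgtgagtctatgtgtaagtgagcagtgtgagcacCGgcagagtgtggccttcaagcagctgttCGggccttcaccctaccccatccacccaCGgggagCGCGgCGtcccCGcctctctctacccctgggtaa
Taf4, a subunit of the general transcription factor TFIID (chr2:179976647-179976896, minus strand, 40 CpG), and Cdh26, a cadherin (chr2:178430265-178430514, plus strand, no CpG), lie beyond a fall in density near the end of the chromosome. Taf4 had a peak in all 4 libraries and Cdh26 in none.
Taf4: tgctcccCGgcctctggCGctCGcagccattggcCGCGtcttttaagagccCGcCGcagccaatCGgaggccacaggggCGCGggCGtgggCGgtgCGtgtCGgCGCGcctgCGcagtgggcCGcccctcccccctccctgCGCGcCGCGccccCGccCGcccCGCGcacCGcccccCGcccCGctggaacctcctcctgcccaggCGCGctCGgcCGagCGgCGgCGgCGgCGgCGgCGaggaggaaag
Cdh26: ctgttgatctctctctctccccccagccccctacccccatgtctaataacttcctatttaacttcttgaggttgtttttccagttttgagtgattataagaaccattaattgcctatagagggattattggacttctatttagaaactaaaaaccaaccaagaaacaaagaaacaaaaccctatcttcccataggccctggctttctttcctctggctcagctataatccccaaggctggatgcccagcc

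Accessible regions were packed more densely on the distal side, in each of the 4 libraries. The proximal side, 146.95 Mb from its first region to 150 Mb, held 177 merged regions per Mb, and the distal side, 32.01 Mb to the last region, held 486 per Mb, a ratio of 2.74. Regions covered 6.07% of the proximal and 20.4% of the distal span, and the median gap between neighbouring regions was 2040 bp and 887 bp. Vehicle replicate 1 had 122 peaks per Mb proximally and 342 distally, a ratio of 2.81. dDAVP replicate 1 had 86.8 and 277 peaks per Mb, a ratio of 3.19. Vehicle replicate 2 had 57.2 and 207 per Mb (3.62), and dDAVP replicate 2 had 58.1 and 208 per Mb (3.58). The lowest distal density, in vehicle replicate 2, was thus above the highest proximal density, in vehicle replicate 1. The mean ratio was 3.30 ± 0.379 (SD, n = 4 libraries), and it was lower in the 2 longer lists than in the 2 shorter ones.

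**Figure D1:**
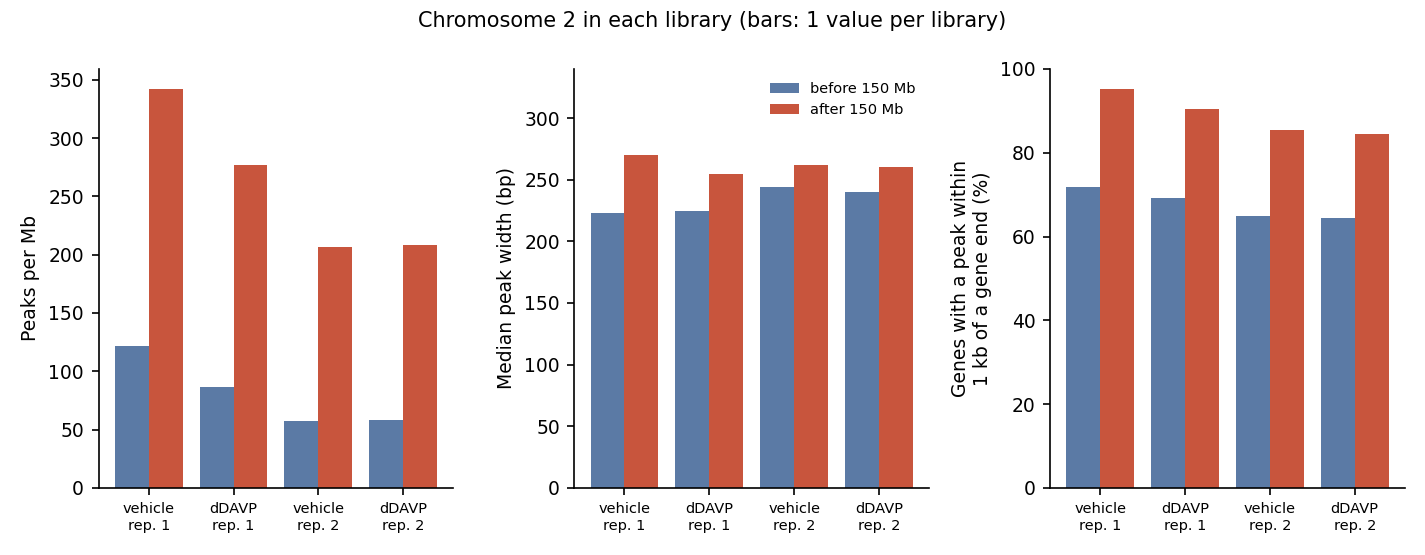
Peaks per Mb, median peak width in bp and percent of protein-coding genes with a peak within 1 kb of a gene end, for each library (horizontal axis) before and after 150 Mb; each bar is 1 library's value. All 3 quantities are higher after 150 Mb in every library, with 207 to 342 peaks per Mb there against 57.2 to 122 before it.

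Along the chromosome the dense part was a broad block with a graded start. From 150 Mb on, successive bins of 1 Mb held 271, 327, 409, 480 and 606 regions. The steepest rise over 100 kb bins lay elsewhere, at 52.2 Mb. In the 10 bins of 1 Mb from 140 to 150 Mb the number of regions ran from 48 to 282 (median 152), and in the 10 bins from 150 to 160 Mb from 271 to 627 (median 535.5). Over the whole of each side the 147 proximal bins held 36 to 582 regions (median 136) and the 32 distal bins 57 to 713 (median 581.5). The sides therefore overlapped in range: 13 proximal and 23 distal bins held 400 regions or more, and 55 proximal bins and 1 distal bin held fewer than 100. From 152 to 175 Mb, a stretch delimited after seeing the densities and called the plateau below, none of the 23 bins had fewer than 409 regions (median 604).

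The densest distal bins were not the ones with most genes. The bin at 169 to 170 Mb held 713 regions, 104 of them in all 4 libraries, with the midpoint of a single protein-coding gene, Tshz2, a zinc finger transcription factor of development. The next, at 170 to 171 Mb, held 682 regions with Zfp217, Bcas1, Cyp24a1 (the enzyme that inactivates vitamin D), Pfdn4 and Dok5. The bin at 163 to 164 Mb held 666 regions and 18 genes, among them Hnf4a (a transcription factor of kidney and liver epithelia), Sgk2 and Pkig (an inhibitor of protein kinase A). The 3 densest proximal bins all lay between 27 and 32 Mb: 582 regions at 28 to 29 Mb (16 genes, among them Tsc1), 579 at 31 to 32 Mb (14 genes, among them Abl1) and 567 at 27 to 28 Mb (13 genes, among them Rxra). The sparsest proximal bins, 36 to 38 regions, held no protein-coding gene (42 to 43 Mb), Kynu (43 to 44 Mb) or Lrrc4c (96 to 97 Mb). On the distal side the sparsest were 179 to 180 Mb (57 regions with Cdh4, Taf4 and 4930591A17Rik), 181 to 182 Mb (109 regions with 34 genes) and 176 to 177 Mb (141 regions in an array of zinc finger genes).

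**Figure D2:**
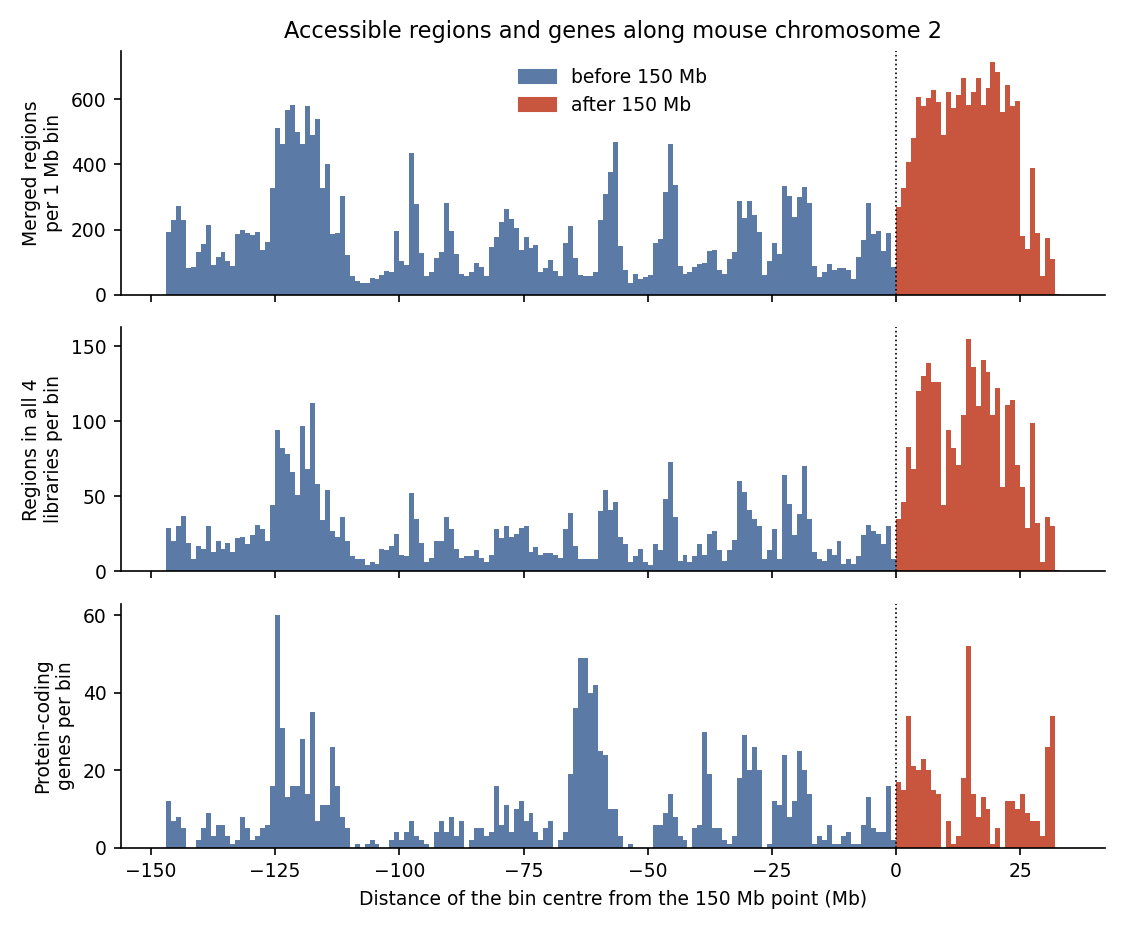
Merged regions, regions present in all 4 libraries and protein-coding genes in each 1 Mb bin of chromosome 2, against the distance of the bin from the 150 Mb point in Mb. After 150 Mb the bins stay high for about 25 Mb and then drop, while the gene counts in the same bins vary from 0 to 52 over the plateau.

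Gene density differed less between the sides than region density did. The proximal side held 9.10 protein-coding genes per Mb and the distal side 13.9, a ratio of 1.53, so that there were 19.5 merged regions per gene proximally and 35.0 distally. Of the 1337 proximal genes 287 were olfactory receptors, and the distal side had none. Without them the gene ratio would be higher and the proximal number of regions per gene larger. With bins grouped by their number of genes, the distal side was the denser one in each class. In bins with 0 to 4 genes the median was 82 regions over 65 proximal bins and 566.5 over 6 distal bins, and the ratio of means was 5.04 (by library 5.57 ± 0.289, SD, n = 4). In bins with 5 to 9 genes the medians were 161 and 505 (ratio of means 2.41, by library 3.13 ± 0.641). In bins with 10 to 19 genes they were 281 and 592.5 (1.72, by library 2.14 ± 0.322), and with 20 genes or more 240.5 and 530 (1.76, by library 1.97 ± 0.0808). The proximal medians thus ran from 82 in the poorest class to 281, and the distal medians from 505 to 592.5. When olfactory receptor and zinc finger genes were not counted, the ratios of means were 5.44, 2.47, 1.68 and 1.19, from the poorest class to the richest. With all protein-coding genes counted, the other autosomes together had medians of 102, 224, 286.5 and 352 regions per bin in these classes. Single autosomes reached 419, 576, 609 and 585, so that 2 of them lay above the distal median in each class but the poorest, where none did. No other autosome had a median over all of its bins above the distal 581.5. The highest was 533, on chromosome 19, and chromosome 12 had 520. These comparisons set a part, whose edge was proposed from its density, against whole autosomes. Dense parts of other autosomes were not compared.

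**Figure D3:**
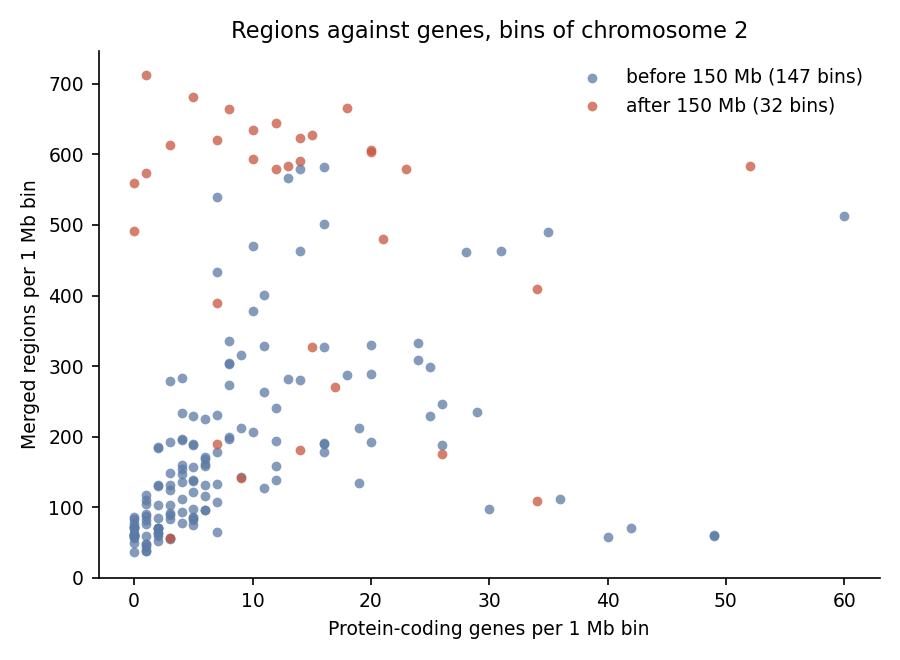
Merged regions against protein-coding genes for each full 1 Mb bin of chromosome 2 (points), coloured by side of the 150 Mb point. Bins before 150 Mb with few genes lie low, most bins after it lie above 400 regions whatever their number of genes, and the proximal bins with 30 to 49 genes and few regions are in or near the olfactory receptor clusters.

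Stretches without genes showed the difference too. Gaps of 500 kb or more between neighbouring protein-coding genes numbered 32 on the proximal side, and their densities ran from 36.6 to 139 regions per Mb (median 85.7). The distal side had 4 such gaps. The gap between Dhx35 and Gm826 (1.45 Mb) held 524 regions per Mb, the gap between Zfp64 and Tshz2 (0.677 Mb) 709, and the gap between Dok5 and Cbln4 (1.16 Mb) 565. These 3 lie in the plateau, and each was denser than the densest proximal gap, between Atp5g3 and Lnpk (139 regions per Mb). The fourth distal gap, between Cdh26 and 4930591A17Rik near the chromosome end, held 25.9 regions per Mb, fewer than any proximal gap. By library the gap between Zfp64 and Tshz2 held 501, 403, 310 and 270 peaks per Mb (vehicle 1, dDAVP 1, vehicle 2, dDAVP 2), and the gap before 4930591A17Rik 19.4, 15.1, 15.1 and 8.62.

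**Figure D4:**
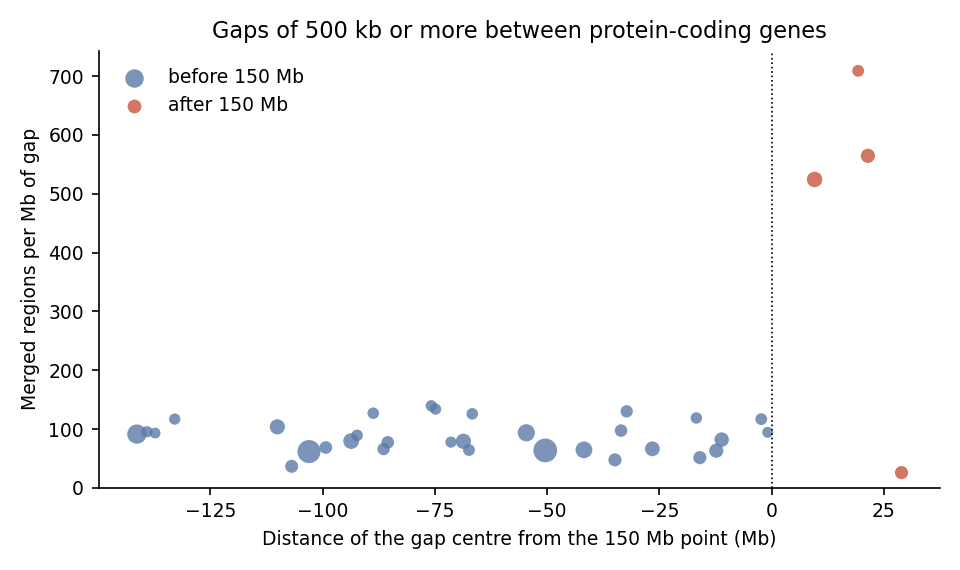
Merged regions per Mb in gaps of at least 500 kb between protein-coding genes, against the distance of the gap's centre from the 150 Mb point in Mb; point area grows with the length of the gap. The 32 gaps before 150 Mb stay at or below 139 regions per Mb, 3 gaps after it lie between 524 and 709, and the gap nearest the chromosome end lies at 25.9.

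The dense stretch ended abruptly. The largest fall in density on the chromosome, found over 100 kb bins after the densities were seen, lay at 178.3 Mb, inside Phactr3, a regulator of protein phosphatase 1 and actin. The 5 bins before it held 35 to 68 regions each and the 5 after it 1 to 6. Peaks in the 1 Mb before and after numbered 290 and 22 in vehicle replicate 1, 241 and 13 in dDAVP replicate 1, 214 and 13 in vehicle replicate 2, and 234 and 7 in dDAVP replicate 2. Every library thus had at least 13 times fewer peaks in the 1 Mb past 178.3 Mb than in the 1 Mb before it. Over the whole stretch past 178.3 Mb, peaks per Mb were 6.02 to 7.20 times fewer than in the plateau by library. From 178.3 Mb to the last region, 3.71 Mb, there were 98.3 merged regions per Mb with 18.0 genes per Mb. The plateau had 597 regions and 13.6 genes per Mb, so the end of the chromosome had more genes per Mb and 6.07 times fewer regions. Between the plateau and the fall, the array of zinc finger genes at 175 to 177 Mb held 161 regions per Mb, of which 26.4% were in all 4 libraries, and 177 to 178.3 Mb held 430 per Mb. Genes of such arrays, like the olfactory receptors, are in part near-identical copies, so reads may fit several of them and the counts there are uncertain. DNA copy number along the chromosome was not measured, so within the block that ends at 178.3 Mb more accessible DNA and more copies of the DNA cannot be told apart.

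Distal regions were somewhat wider and, in the merged set, more often found in all libraries, except those at gene ends. Over all regions the median width was 232 bp proximally and 302 bp distally, and regions over 1 kb numbered 10.1 and 37.9 per Mb. At gene ends the order turned, with median widths of 568 and 533 bp and 46.4% and 42.0% of regions in all 4 libraries (proximal, distal). Inside genes the values were 226 and 295 bp and 10.9% and 16.4%. Outside genes and their end windows they were 222 and 295 bp and 12.8% and 16.5%. Within single libraries the median peak width was 223, 225, 244 and 240 bp proximally and 270, 255, 262 and 260.5 bp distally (vehicle 1, dDAVP 1, vehicle 2, dDAVP 2), so every distal value lay above every proximal one. Regions seen in 1 library made up 59.2% of the proximal and 46.0% of the distal set. Regions seen in all 4 made up 14.1% (95% exact binomial interval 13.6 to 14.5%) and 18.1% (17.5 to 18.7%), where the interval covers counting error only. The share of a library's own peaks that lay in such regions was 21.9% proximally and 28.1% distally in vehicle replicate 1 and 30.7% and 35.3% in dDAVP replicate 1. In vehicle replicate 2 it was 46.4% and 46.3% and in dDAVP replicate 2 45.5% and 46.0%, so the sides differed by under 1 percentage point in the shorter lists. Per Mb the distal side had 2.13 times as many regions of 1 library and 3.52 times as many of all 4.

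The share of regions at gene ends was nearly the same on the sides, 6.55% proximally and 6.27% distally. Among regions in all 4 libraries it was 21.6% and 14.6%. Regions outside genes and their 1 kb end windows numbered 79.6 per Mb proximally and 249 per Mb distally, and regions inside genes 86.1 and 207 per Mb. In each library the gene-end share of peaks was lower distally: 7.55% and 7.04% in vehicle replicate 1, 9.38% and 7.56% in dDAVP replicate 1, 12.4% and 8.61% in vehicle replicate 2, and 11.95% and 8.57% in dDAVP replicate 2.

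The widest regions common to all libraries were of different kinds on the sides. Proximally the 2 widest lay far from any protein-coding gene: chr2:80811867-80817292 (5426 bp, 152 kb from Nup35) and chr2:22001902-22007307 (5406 bp, 171 kb from Gpr158). At the first of them the widest single peak was 4972, 5422, 5405 and 4953 bp (vehicle 1, dDAVP 1, vehicle 2, dDAVP 2). The third, chr2:30148686-30151956 (3271 bp), lay at an end of Tbc1d13. Distally, chr2:174643525-174647210 lay in Zfp831 (3686 bp) and chr2:156839415-156842565 at Tgif2 (3151 bp), a homeobox repressor of TGF-beta signalling. At Tgif2 the widest peak was 2647, 3095, 3078 and 2076 bp in the same order of libraries.

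Most protein-coding genes had an open end on either side, and more of them did distally. A peak within 1 kb of a gene end was found for 71.9%, 69.2%, 65.0% and 64.3% of the 1337 proximal genes and 95.3%, 90.3%, 85.4% and 84.5% of the 445 distal genes (vehicle 1, dDAVP 1, vehicle 2, dDAVP 2). A single region common to all 4 libraries lay at 59.9% of proximal genes (95% exact binomial interval 57.2 to 62.6%) and at 78.4% of distal genes (74.3 to 82.2%), against 66.8% on the other autosomes. Without the olfactory receptor genes, all of which lie proximally on this chromosome, the proximal share was 76.1% and that of the other autosomes 69.5%. A gene-end peak in each of the 4 libraries, in 1 region or several, was found for 65% of protein-coding genes of the genome, 60.1% of proximal genes (76.3% without olfactory receptors) and 80.2% of distal genes, against which the counts below are read. Olfactory receptors, which are expressed in single neurons of the nose, had a gene-end peak in each library for 2 of 287 genes (Olfr1033 and Olfr1055) and in none for 259. Between 85 and 90 Mb, 208 of 216 genes were olfactory receptors, and these 5 bins held 58 to 112 regions each.

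Genes without any gene-end peak were rare distally and gathered at the chromosome end. There were 14, or 3.15% of distal genes, against 24.8% of proximal genes and 6.86% of proximal genes without olfactory receptors. Of the 14, 11 lay past the fall at 178.3 Mb. They were Cdh26, Ntsr1 (the neurotensin receptor), Chrna4 (a neuronal acetylcholine receptor subunit), Stmn3, Oprl1, Myt1, Col20a1, Dnajc5, Pcmtd2, Gm14496 and 4930591A17Rik. Some of these were open away from their outermost ends: Dnajc5 held 2 regions of all 4 libraries, and Cdh26, Col20a1 and Pcmtd2 held 1 each. The 3 genes before the fall were Gm14139, Defb26 and Gm4631. Of the 67 genes past the fall, 33 had a gene-end peak in each library (49.3%), against 324 of 378 distal genes before it (85.7%).

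Gene families clustered on the chromosome were counted by the same measure, without a test. The beta-defensins, antimicrobial peptides of epithelia at 152 Mb, had 3 of 11 genes with a gene-end peak in each library (Defb28, Defb29 and Defb36) and 7 with one in some. The WAP four-disulfide core genes, protease inhibitors of secretory epithelia in the plateau, had 12 of 14. Wfdc2, the one with the widest peaks, had 1701, 1881, 1759 and 1708 bp (vehicle 1, dDAVP 1, vehicle 2, dDAVP 2). Zfp genes had a peak in each library at 5 of 6 proximal and 19 of 21 distal genes. Cystatins, cysteine protease inhibitors around the 150 Mb point, had 1 of 7 proximally (Cst3, the ubiquitous cystatin C) and 0 of 1 distally, where Cst7, a leukocyte cystatin, had a single peak of 567 bp in vehicle replicate 1.

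Transcription factors of the collecting duct and other epithelia had a gene-end peak in each library at 11 of 14 proximal and 5 of 6 distal genes (78.6% and 83.3%), beside 60.1% and 80.2% of all genes of the sides. Without olfactory receptors the share of all proximal genes was 76.3%, close to that of the proximal factors. Proximal examples were Nfe2l2, the oxidative stress factor (widest peak 1969 ± 44.9 bp, SD, n = 4), Ehf, an epithelial Ets factor (1430 ± 167 bp), Gata3 (1341 ± 391 bp) and Pax8, a renal lineage factor (1297 ± 123 bp). Distal examples were Cebpb (2014 ± 114 bp), Snai1, a repressor of epithelial genes (1190 ± 132 bp), and Hnf4a (558 ± 134 bp). The Hoxd cluster, proximal and in part also counted among the factors, had 6 of 9 genes open in each library. Hoxd8 (1372 ± 20.1 bp) and Hoxd9 (1653 ± 41.3 bp) were among them, and Hoxd11 had a single peak of 610 bp in vehicle replicate 1. The neighbourhood median, the median number of regions of all 4 libraries within 50 kb, was 9 for the proximal and 19 for the distal factors. Over all genes it was 5 and 13, and 6 for proximal genes without olfactory receptors. It is itself a measure of region density, from which the split point was proposed. A higher distal value, here and for the lists below, is therefore no separate result about the listed genes.

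Genes of vasopressin, cAMP and prostaglandin signalling had a gene-end peak in each library at 7 of 9 proximal (77.8%) and 5 of 5 distal members, beside 60.1% and 80.2% of all genes. Among proximal genes other than olfactory receptors the share was 76.3%. Ptgs1, cyclooxygenase 1, had 1531, 1801, 1981 and 1831 bp (vehicle 1, dDAVP 1, vehicle 2, dDAVP 2), and Atf2, a cAMP response element binding factor, 1534 ± 116 bp. Distally Gnas, which encodes the stimulatory G protein subunit that couples the V2 receptor to adenylyl cyclase, had 1681, 1617, 1577 and 1520 bp. Edn3 had 662, 646, 685 and 517 bp, and Pkig 634.5 ± 283 bp. Pck1, the gluconeogenic enzyme, had 591.5 ± 384 bp and Ptgis, prostacyclin synthase, 210.5 ± 115 bp, so widths varied more at these members than at Gnas. Pde1a, a phosphodiesterase, had a single peak of 449 bp in vehicle replicate 1. The neighbourhood medians were 8 proximally and 14 distally.

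Kidney transport genes had a gene-end peak in each library at 5 of 11 proximal and 5 of 7 distal members (45.5% and 71.4%), below the 60.1% and 80.2% of all genes. The 76.3% of proximal genes other than olfactory receptors was higher still. Slc4a11 (1479 ± 115 bp), Trpm7, a magnesium channel kinase (1216 ± 193 bp), and Lrp2, the endocytic receptor megalin of the proximal tubule (1204 ± 281 bp), were open proximally. Slc12a1 had a peak of 356 bp at a gene end in dDAVP replicate 1 alone, and Kcnj3 had none. Distally Slc9a8, a sodium-proton exchanger, had 972, 1101, 932 and 992 bp (vehicle 1, dDAVP 1, vehicle 2, dDAVP 2). Cdh4, a cadherin past the fall, had a single peak of 301 bp in vehicle replicate 1. Neighbourhood medians were 4 and 17.

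Growth, Notch and adhesion genes were open in each library at 9 of 12 proximal and 8 of 10 distal members (75% and 80%, beside 60.1% and 80.2% of all genes), with neighbourhood medians of 5.5 and 17. Olfactory receptors apart, 76.3% of all proximal genes were open in each library. Spint1, a protease inhibitor of epithelia (1921 ± 436 bp), Jag1, a Notch ligand (1588 ± 82.3 bp), and Notch1 (1564 ± 791 bp) were proximal examples. Distal ones were Bmp7, a morphogen of kidney development (2175 ± 95.2 bp), the kinase gene Src (2110 ± 644 bp) and Lama5, a laminin chain of kidney basement membranes (1157 ± 99.3 bp), which lies past the fall. Cell cycle and housekeeping genes were open at 9 of 9 and 12 of 13, among them Pcna (1018 ± 39.9 bp), Psmb7 (1086 ± 3.50 bp) and, past the fall, the proteasome gene Psma7 (1626 ± 16.0 bp). The exception, Eef1a2, a translation factor of muscle and neurons, also lies past the fall and had peaks of 104 and 177 bp in the replicate 1 libraries. Genes of other tissues were open in each library at 5 of 19 proximal and 2 of 3 distal members. Bdnf, Fshb, Il1a and Cst8 had no gene-end peak, and Myl9, a smooth muscle myosin light chain that epithelial cultures also make, had 1530, 786, 518 and 518 bp.

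Promoter windows (250 bases before to 50 after a start) separated by CpG content in a way that gene counts do not show. Of the 2847 windows on the chromosome, those with at least 50% G+C and an observed to expected CpG ratio of at least 0.6 are called CpG-rich here and the others CpG-poor; windows of noncoding genes are included. They made up 33.5% of proximal and 34.02% of distal windows. A peak lay on 95.2%, 94.1%, 89.8% and 90.6% of the CpG-rich windows from 36 to 150 Mb and on 97.4%, 95.3%, 93.2% and 92.1% of those in the plateau (vehicle 1, dDAVP 1, vehicle 2, dDAVP 2). For the other windows the shares were 22.5%, 21.1%, 18.96% and 18.1% from 36 to 150 Mb and 51.3%, 47.5%, 37.8% and 39.5% in the plateau. The CpG-rich share was slightly higher in the plateau in each of the 4 libraries, and the CpG-poor shares of the stretches did not overlap. Olfactory receptor windows, all proximal, were CpG-poor and lower the proximal shares. A region of all 4 libraries lay on 19.9% of proximal CpG-poor windows, or 24.0% without olfactory receptors. It lay on 39.5% of distal ones and 23.5% over all chromosomes. Past the fall a peak lay on 82.8 ± 5.56% of 45 CpG-rich windows and on 8.77 ± 1.43% of 57 others (SD, n = 4 libraries).

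The denser proximal stretch at 24 to 36 Mb, with 479 regions per Mb, gave 95% ± 3.88 of CpG-rich and 39.7% ± 6.56 of other windows, close to the plateau. A window of 300 bp away from gene ends also met regions more often in dense stretches. Of consecutive 300 bp windows outside gene-end windows, 1.81% overlapped a region of all 4 libraries from 36 to 150 Mb, 7.12% from 24 to 36 Mb, 11.6% in the plateau and 1.46% past the fall. Among CpG-poor promoters the shares for such regions were 17.1%, 32.7%, 39.8% and 5.26%. In the zinc finger array, where no window was CpG-rich, 24 of 29 windows had a region of all 4 libraries. How much of the difference between stretches comes from regions that cover a promoter by their density alone was not tested. Motif matches were counted in the same windows. TGACGTCA, the palindromic cAMP response element, was in 1.27% of proximal and 1.24% of distal windows (1.79% over all chromosomes). TGANTCA, an AP-1 site searched on both strands with N as any base, was in 9.57% of proximal and 6.89% of distal windows (7.81% over all chromosomes). TGACGTCA does not contain TGANTCA, and a match is no evidence of binding.

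**Figure D5:**
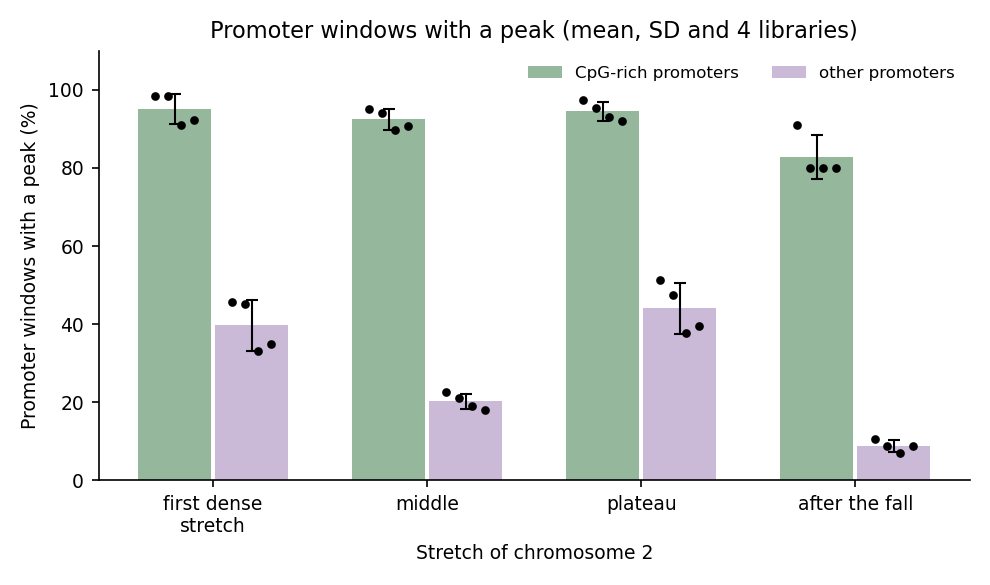
Percent of promoter windows with a peak, by CpG class, in the first dense stretch (24 to 36 Mb), the middle (36 to 150 Mb), the plateau (152 to 175 Mb) and past the fall at 178.3 Mb; bars are means of 4 libraries, error bars SD, points single libraries. CpG-rich promoters stay between 80.0 and 98.3% everywhere, and the others are near 40% in both dense stretches and lower elsewhere.

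Whether vasopressin signalling shifted the balance between the sides was asked over libraries. The log2 ratio of distal to proximal peaks per Mb was 1.49 and 1.86 in the vehicle libraries and 1.67 and 1.84 in the dDAVP libraries, so the groups overlapped. Their means differed by 0.083 (dDAVP minus vehicle, exact two-sided permutation p = 1, adjusted p = 1 over 7 tests), less than the spread between libraries. With 2 against 2 libraries the smallest p that this test can give is 0.333, so no difference could have passed 0.05. The other 6 comparisons were median width, percent of genes with an open end and gene-end share, each on both sides, and had adjusted p = 1 by the exact permutation test. The most separated of them was median distal width, 258 ± 3.89 bp with dDAVP and 266 ± 5.66 bp with vehicle (SD, n = 2 each, exact permutation p = 0.333 before adjustment).

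Regions with a peak in both libraries of a treatment and in neither of the other were counted on each side. Over all regions of the genome 1.61% were dDAVP-only and 3.35% vehicle-only by this rule. On the proximal side 395 of 26058 regions were dDAVP-only (1.52%, 95% exact binomial interval 1.37 to 1.67%) and 686 vehicle-only (2.63%, 2.44 to 2.83%). On the distal side 323 of 15566 were dDAVP-only (2.08%, 1.86 to 2.31%) and 608 vehicle-only (3.91%, 3.61 to 4.22%). The intervals cover counting error only and not the spread between libraries. The shares rise when a library is left out, but the rule then rests on a single library of a treatment and is looser. That rise therefore does not measure the spread between libraries. Vehicle replicate 1 was the longest list, and vehicle-only regions outnumbered dDAVP-only ones on both sides. With only the widest peaks of each list, as many as the shortest list holds, dDAVP-only and vehicle-only shares were 2.54% and 2.29% proximally and 3.41% and 3.29% distally, so with lists of equal length vehicle-only regions were not the more numerous.

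The widest treatment-specific regions were given by their peaks. Distally, chr2:178201152-178202381 inside Phactr3 was dDAVP-only (peaks of 483 and 1230 bp in dDAVP replicates 1 and 2), as were chr2:173554887-173556104, 12.6 kb from Ankrd60 (252 and 1215 bp), and chr2:157505735-157506892, 14.8 kb from Gm14279 (1023 and 340 bp). Vehicle-only were chr2:169343409-169344999 in the gap before Tshz2 (649 and 451 bp in vehicle replicates 1 and 2), chr2:166669345-166670555 in Prex1, a Rac exchange factor (806 and 440 bp), and chr2:152092961-152094067 in Scrt2 (1107 and 156 bp). Proximal dDAVP-only regions lay 14.2 kb from Nebl, in Phyh and in Gpr176, and vehicle-only ones 28.9 kb from Cd82, 197 kb from Nr4a2 and in Alx4. At gene ends, by the same rule on peaks within 1 kb, 0.21% of all protein-coding genes of the genome were dDAVP-only and 0.864% vehicle-only. Of the 1337 proximal genes 3 were dDAVP-only: Hoxd10 (367 and 340 bp), Calcrl, a receptor of the calcitonin family (72 and 159 bp), and Tmco5b (247 and 222 bp), while 15 were vehicle-only. Of the 445 distal genes none was dDAVP-only and 7 were vehicle-only: Gm14124, Psmf1, Bpifb3, Spata25, Trp53rkb, Sycp2 and Lime1. The peaks were 852 and 934 bp at Trp53rkb and 885 and 251 bp at Lime1. At Trp53rkb and Tmco5b the merged region at the gene end was present in all 4 libraries, because peaks of the other treatment lay in the same region more than 1 kb from the end. The equal-length lists were not applied to gene ends, and no test per gene could be made from lists without scores.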

How the data were processed

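The authors deposited 1 peak list per library, whose 3 columns are chromosome, start and end; the deposited unit is a position and no score, depth or count comes with it. Per the submitters' processing notes cutadapt, Bowtie2, SAMtools, Picard, bedtools, MACS2 and the build mm10 were used; versions, thresholds and read shifting are not given in the sources used. A deeper library can yield more and wider peaks, and the depth per library is unknown. No list held overlapping or repeated peaks.

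Peaks were merged with Python 3.11.15, numpy 2.4.6 and pandas 2.3.3 (touching peaks kept apart; coordinates are printed 1-based), checked against bedtools on chromosome 2 and tested on simulated data. Genes were 21883 protein-coding genes of the RefSeq table on GRCm38.p6, which gives no strand, placed in bins by midpoint; 1782 lie on chromosome 2, and 1544 of these matched a promoter window. Gene ends were 1 kb around both outermost ends, so an internal promoter is missed. Treatments were compared with exact permutation tests (scipy 1.17.1). Of 130 listed symbols 123 matched chromosome 2; the other 7 were not counted. Named were the 3 widest regions and the 3 densest and sparsest bins per side, up to 6 list genes with and 4 without a peak, and the widest treatment-specific regions; some items that this rule takes are not reported here. Members and lists were chosen with earlier results of these data known, and genes named for their place past the fall or in the plateau were chosen after their values were seen.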

Additional observations from a re-analysis of the deposited data

How the results depend on the processing

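The distal to proximal ratio of merged regions per Mb was 2.48 to 4.28 over 12 settings and the mean ratio over libraries 2.95 to 5.39 over 10; the highest values came from medians over bins (4.28 and 5.39), and the widest peaks of each list gave 3.17. Without each library in turn the ratios were 2.75 to 3.25 and 3.19 to 3.46. Gene classes gave, for 0 to 4 genes, 4.52 (bins of 0.5 Mb), 6.47 (2 Mb) and 5.44 (olfactory receptor and zinc finger genes not counted), and for 20 or more 1.50 (2 Mb) and 1.19 (those genes not counted).

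Distal width and all-library share exceeded the proximal ones in 9 of 9 settings and the gene share in 12 of 12, but the gene-end share of regions in 1 of 11. At an overlap of 50 bp distal width was 283 bp, all-library shares 13.2% and 16.5% (proximal, distal), dDAVP-only 1.31% proximally, and vehicle-only 2.29% and 3.51%. With the widest peaks, widths were 318 and 364 bp, the proximal all-library share 15.6%, dDAVP-only 2.54% and 3.41%, and vehicle-only 2.29% and 3.29%. Gene-end shares were 5.48% distally at a split 5 Mb further on, 4.29% distally in a 0.5 kb window, and 11.3% and 11.4% in a 2.5 kb window, where genes with an all-library region were 64.9% and 84.5%. The 76.1% without olfactory receptors, the distal side ending at the fall, and the ratio without the zinc finger array were added after seeing the data.

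Without each library in turn, distal width was 284 to 296 bp, and the share in all remaining libraries 17.8 to 21.3% proximally and 22.5 to 24.6% distally. Treatment-specific shares, then resting on a single library of a treatment, were 2.70 to 17.5% and 3.601 to 15.3% for dDAVP-only and 4.42 to 36.5% and 6.996 to 26.5% for vehicle-only. The distal share was the higher one in 6 of 7 settings for each direction. The order turned for vehicle-only without vehicle replicate 2 (36.5% proximally, 26.5% distally) and for dDAVP-only without dDAVP replicate 2 (17.5% and 15.3%).

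The treatment difference in log2 ratio ran from -0.098 (without vehicle replicate 1) to 0.26, and was -0.0010 without dDAVP replicate 2. With the replicate number as a block it was 0.083 (exact permutation p = 1), from 0.18 within replicate 1 and -0.014 within replicate 2; with 2 pairs, whether the numbers pair the libraries could not be settled. Peaks carry no depth, so a region absent from a list is not shown to be closed.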

Other observations

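MicroRNA hairpins were counted in the same stretches. Of 53 annotated hairpins on the proximal side, 30 had a merged region within 1 kb and 7 a region of all 4 libraries. Of 10 distal hairpins before the fall at 178.3 Mb, 8 had a region and 4 a region of all libraries (Mir695, Mir7685, Mir7678 and Mir6340), and of 3 past the fall 2 and 1 (Mir3091). Mir296 and Mir298, a pair beside the imprinted Gnas locus (hairpins at chr2:174267047-174267125 and chr2:174267504-174267585, minus strand), each had a region within 1 kb and none of all libraries. These hairpins were looked at after the densities were seen, they are few, and no test was made. Hairpins of other chromosomes were not counted, so the counts have no background share and say nothing particular to hairpins.

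Elsewhere in the genome the autosome medians of regions per 1 Mb bin ran from 38 on chromosome 18 and 41 on chromosome 4 to 533 on chromosome 19, with medians of 4, 6 and 8 protein-coding genes per bin on these 3. The share of regions found in all 4 libraries was 26.3%, 28.3% and 18.6% on them, and 26.98% on chromosome 7 and 16.7% on chromosome 12, the second densest. The other 13 autosomes had 13.7 to 16.1%. The highest shares were thus on the sparse chromosomes 4, 7 (median 51 regions per bin) and 18. On the dense chromosomes 19 and 12 the shares exceeded those of the other 13 by much less.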
